A study of Homo sapiens with 28 samples.

Results

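The response of gene-level read counts to metabolic labelling was examined in 9 libraries of HEK293T cells, a standard line derived from human embryonic kidney. All 9 went through the handling called improved. Of these, 6 came from cells given 100 µM 4-thiouridine (s4U) for 2 h and 3 from cells given none, out of 18 libraries in the deposited count table and 28 samples in the series. Every sample was of wild-type genotype, and the labelled and unlabelled samples alike went through one of 3 recoding chemistries. TL used NaIO4 with TFEA at pH 5.2, SLAM used iodoacetamide, and TUC used OsO4 with NH3. Each chemistry supplied 2 labelled libraries and 1 unlabelled library. The unlabelled libraries therefore have no replicate within a chemistry, and no label says that replicates were separate cultures, so the p-values measure the spread between these libraries. The genes described are those whose exonic counts changed with s4U by reads placed with HISAT-3N, an aligner that accepts T-to-C conversions, and also by reads placed with STAR, a general spliced aligner.

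s4U is a uridine analogue that cells phosphorylate through the pyrimidine salvage pathway and build into RNA made during the exposure. The recoding chemistry then turns the s4U positions into bases read as C, so new RNA carries T-to-C mismatches while older RNA does not. The method assumes that the exposure leaves the RNA population as it was. A comparison of labelled with unlabelled libraries bears on that assumption gene by gene, but only through the reads recovered and placed. Whether RNA levels in the cells, recovery of labelled RNA or placing of converted reads set a change in counts was not tested. Short-lived RNAs are replaced quickly and become rich in converted reads, whereas long-lived RNAs stay mostly unconverted. Strong s4U exposure is known to disturb ribosomal RNA synthesis in cultured cells.

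The libraries held 2129372 to 9962345 reads placed with HISAT-3N, of which 867400 to 4604325 were exonic reads of a gene. The deepest library was the unlabelled TL library. Among exonic gene reads, 24.7% to 33.2% were converted, meaning that they held 1 or more T-to-C mismatches, in the labelled libraries and 2.71% to 3.57% in the unlabelled ones. Intronic reads made up 36.1% to 45.2% of labelled and 39.5% to 41.9% of unlabelled libraries. Chromosome 21 and 2 unplaced contigs, which include ribosomal DNA, took 6.49% to 15.3% of labelled and 7.64% to 10.2% of unlabelled reads. Those ranges overlap. The gene identifiers could not be paired with symbols from the sources used here. The cell line's markers could therefore not be looked up in the counts, and genes appear by identifier, chromosome or class.

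With s4U, 335 genes were higher and 280 were lower by both aligners, out of 11927 genes tested with both. These are 2.81% and 2.35% of the genes tested, 5.16% together. Each was called by edgeR's quasi-likelihood test with chemistry as a block at a Benjamini-Hochberg adjusted p under 0.05 in both fits. The changes were mostly small. The higher genes had a median log2 change of 0.42 with HISAT-3N and 0.43 with STAR, the lower genes −0.47 and −0.44, and all genes 0.01 and 0.01. Of the 335 higher genes, 271 changed by less than 1.5-fold with HISAT-3N, as did 202 of the 280 lower genes. A change of at least 2-fold with both aligners was found in 9 higher and 5 lower genes. Most were well covered, since 314 of the higher and 261 of the lower genes averaged at least 50 exonic reads per library. The median level in the unlabelled libraries was 150 CPM (exonic reads scaled to library size) for the higher genes and 112 CPM for the lower genes, against 36.9 CPM for all genes.

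The 615 genes were called from these same libraries, so agreement among the libraries describes them and does not test them. The sign was the same in all 3 chemistries for 326 of the higher and 273 of the lower genes, against 4683 of all 11927 genes (39.3%). No labelled library overlapped an unlabelled one for 206 of the higher and 192 of the lower genes, against 8.02% of all genes. The median change of the higher genes was 0.41 in TL, 0.46 in SLAM and 0.35 in TUC. The lower genes stood at −0.45, −0.55 and −0.43 in the same order. With HISAT2, an aligner not built for conversions, 588 of the 615 were called with the same sign, in a fit that called 2315 genes, or 19.4% of those it tested.

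The size of the list depended on the fit. A fit of all 18 libraries added the drop-out ones. Its 12 groups, of each chemistry, handling and label, took the place of the chemistry block. It called 28 genes with HISAT-3N, 8 with STAR and 8 with both, and with HISAT-3N every one of the 615 genes kept its sign. The change was still taken between improved-handling groups alone, so the drop-out libraries entered only the filter, scaling and spread. The kept signs therefore come from the libraries that chose the genes and do not test them. With exonic and intronic reads together, 890 genes were called with both aligners, but these included only 366 of the 615. Of the 615, 610 kept their sign there with HISAT-3N. Leaving out the unlabelled TL library, the deepest, left 242 genes called with both aligners, of which 231 were among the 615. Without the unlabelled SLAM library 365 were called, and without the unlabelled TUC library 408.

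**Figure D1:**
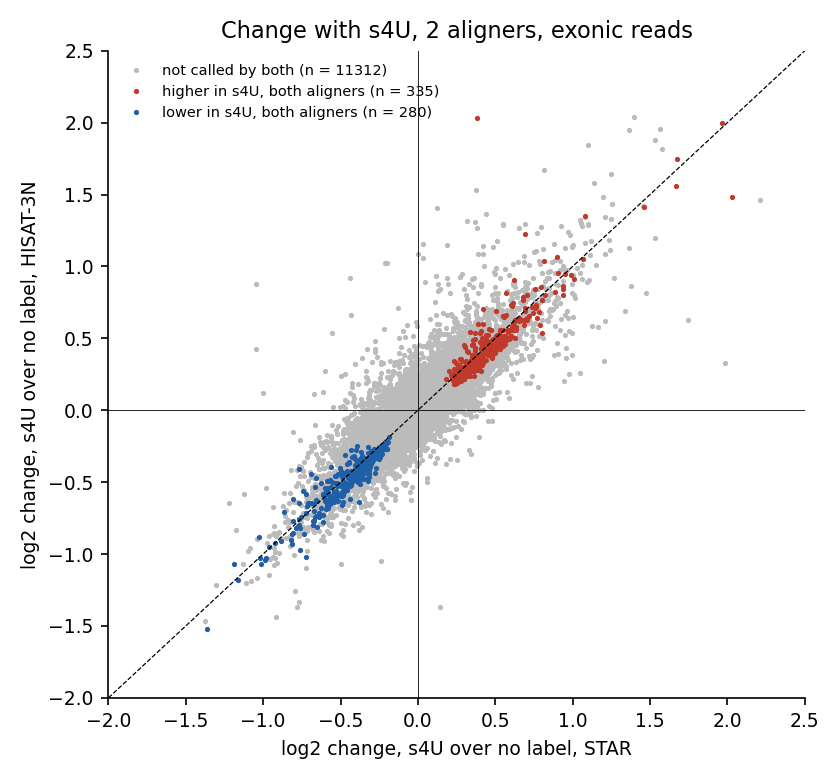
Each point is a gene tested with both aligners, with the log2 change of s4U over no label by STAR on the horizontal axis and by HISAT-3N on the vertical axis. Red points are the 335 genes higher and blue points the 280 genes lower with both, lying along the dashed line of equal change, and 5 genes fall outside the plotted range, 2 of them called with both.

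The plot sets the changes by both aligners against each other. The median absolute difference between the HISAT-3N and STAR changes of the 615 genes was 0.05 on the log2 scale, and it exceeded 0.5 in 3 genes. These genes were chosen by a call of the same sign with both aligners, which placed the same reads. Their closeness to the line of equal change therefore describes them and does not test them. No gene was called by both aligners with opposite signs. HISAT-3N alone called 91 genes higher and 64 lower (in all it called 770 of 12164 genes, 6.33%, with 3.5% higher and 2.83% lower). STAR alone called 391 higher and 275 lower, where it called 1281 of 12203 genes (10.5%) in all, 5.95% higher and 4.55% lower. The 91 genes higher with HISAT-3N alone had a median converted share of 55.6%, and in 24 of them at least 75% of labelled reads were converted. Of these 91 genes, 59 were also tested with STAR, where 40 were higher at an unadjusted p under 0.05, a mark that 2865 of all 12203 genes passed in either direction. Of the 391 genes higher with STAR alone, 390 were tested with HISAT-3N, and these had a median converted share of 17.0%, and none reached 75%. The HISAT-3N fit had 305 of those 390 higher at an unadjusted p under 0.05, which 2342 of all 12164 genes passed in either direction. Of the genes lower with one aligner alone, 55 of 63 (HISAT-3N) and 166 of 275 (STAR) were lower at that mark with the other. The medians were 52.2% for the 275 lower with STAR alone and 29.2% for the 64 lower with HISAT-3N alone. All these shares are of HISAT-3N reads. The genes higher with HISAT-3N alone were thus richly converted. Those higher with STAR alone had a share like that of the genes higher with both, whose median was 16.9%.

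Among well-covered genes called with both, ENSG00000117450 on chromosome 1 had one of the largest increases, of like size with both aligners. Its level in the unlabelled libraries was 67.9 CPM in TL, 49.4 CPM in SLAM and 87.6 CPM in TUC. In the labelled pairs it was 148 and 176 CPM in TL, 226 and 246 CPM in SLAM, and 173 and 187 CPM in TUC. Every labelled library lay above every unlabelled one, at 193 ± 36.4 CPM (SD, n = 6) against 68.3 ± 19.1 CPM (SD, n = 3). It changed by 1.41 ± 0.11 (SE) in log2 with HISAT-3N, with an adjusted p of 3e-20 by edgeR's quasi-likelihood test, and 1.46 ± 0.11 (SE) with STAR, with an adjusted p of 7.2e-20. Only 11.5% ± 1.46 (SD, n = 6) of its labelled reads were converted, a low share even for the genes called higher, whose median was 16.9%. Its unconverted reads alone stood at 171 ± 32.3 CPM (SD, n = 6) with s4U and 64.8 ± 18.5 CPM (SD, n = 3) without. The excess over unlabelled cells therefore lay mostly in reads without a conversion. Its intronic reads changed by 0.18 ± 0.28 (SE) with HISAT-3N (edgeR adjusted p = 0.79) and 0.45 with STAR (edgeR adjusted p = 0.39), and were called with neither.

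ENSG00000248527, also on chromosome 1, had the largest HISAT-3N change of the well-covered genes called with both, but the aligners placed it differently. With HISAT-3N the unlabelled libraries gave 114 CPM in TL, 117 CPM in SLAM and 71.4 CPM in TUC. The labelled ones gave 455 and 451 CPM in TL, 320 and 415 CPM in SLAM, and 377 and 416 CPM in TUC. With STAR it was already at 470 ± 87.1 CPM (SD, n = 3) without s4U and at 608 ± 45.1 CPM (SD, n = 6) with it. Its log2 change was 2.04 ± 0.09 (SE) with HISAT-3N (edgeR adjusted p = 3.5e-40) and 0.38 ± 0.06 (SE) with STAR (edgeR adjusted p = 2.3e-06). With HISAT2 in place of HISAT-3N the change was also small, at 0.40, 0.35 and 0.37 with settings D, ML and VL. The STAR call was lost in the fit of all 18 libraries (log2 change 0.34, edgeR adjusted p = 0.43). Even without s4U, 26.8% to 54.7% of its HISAT-3N reads carried a T-to-C mismatch, and with s4U 80.0% to 87.3% did. Its unconverted reads did not separate the groups, at 67.3 ± 19.7 CPM (SD, n = 6) with s4U and 61.9 ± 18.7 CPM (SD, n = 3) without. What set the high mismatch share in unlabelled cells was not tested.

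ENSG00000106948 on chromosome 9 fell the most of the genes called with both that averaged at least 50 reads per library. It had 21 to 47 HISAT-3N reads in a labelled library and 87 to 354 in an unlabelled one. It thus met that mean only through the unlabelled libraries, where it was high. Without s4U it stood at 77.2 CPM in TL, 64.1 CPM in SLAM and 70.3 CPM in TUC. With s4U it stood at 20.3 and 27.9 CPM in TL, 24.7 and 27.6 CPM in SLAM, and 25.6 and 24.2 CPM in TUC. The groups were far apart, with a mean of 25.03 ± 2.75 CPM (SD, n = 6) against 70.6 ± 6.58 CPM (SD, n = 3). The log2 change was −1.52 ± 0.16 (SE) with HISAT-3N (edgeR adjusted p = 2e-13) and −1.36 ± 0.15 (SE) with STAR (edgeR adjusted p = 9.4e-12). Its intronic reads, which the exonic fit did not use, were lower too, by −1.08 ± 0.18 (SE) in log2 with HISAT-3N (edgeR adjusted p = 4.9e-05) and −0.89 with STAR (edgeR adjusted p = 0.00084). Of its labelled exonic reads, 40.3% ± 8.99 (SD, n = 6) were converted.

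ENSG00000151065 on chromosome 12 came next among the genes that fell, at a level just above the 50-read minimum. Its unlabelled libraries gave 42.1 CPM in TL, 38.3 CPM in SLAM and 28.9 CPM in TUC. Its labelled libraries gave 13.1 and 22.8 CPM in TL, 18.8 and 21.5 CPM in SLAM, and 15.8 and 16.3 CPM in TUC. All labelled values were below all unlabelled ones. The log2 change was −1.04 ± 0.21 (SE) with HISAT-3N (edgeR adjusted p = 0.00015) and −0.99 ± 0.19 (SE) with STAR (edgeR adjusted p = 5.9e-05). With 16 to 31 reads in a labelled library and 52 to 193 in an unlabelled one, it too met the minimum only through the unlabelled libraries. The call was less firm than the others. With HISAT-3N it was lost without the unlabelled TL library (log2 change −0.88, adjusted p = 0.082) and in the fit of all 18 libraries (−1.07, adjusted p = 0.08), as it was with STAR under the latter (−1.03, adjusted p = 0.085). Its intronic reads had a change of −0.22 ± 0.13 (SE, edgeR adjusted p = 0.34) with HISAT-3N and −0.005 with STAR (edgeR adjusted p = 0.99). With exonic and intronic reads together its change was −0.46 with HISAT-3N and −0.37 with STAR, still called with each. DESeq2 gave −1.04 and −0.99, with no adjusted p for this gene with either aligner.

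**Figure D2:**
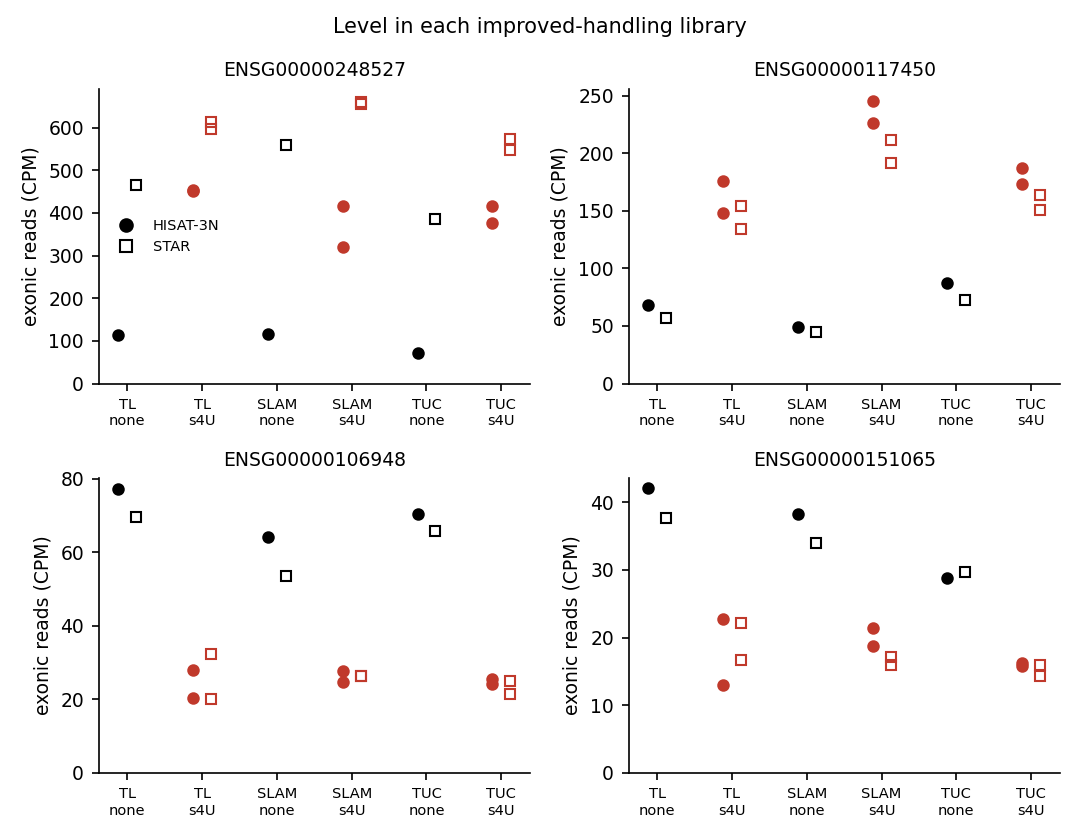
Points give the exonic level in CPM of 4 genes in each improved-handling library, filled for HISAT-3N and open for STAR, black without s4U and red with it, with the chemistry under each column. In ENSG00000117450, ENSG00000106948 and ENSG00000151065 the aligners give like levels, while in ENSG00000248527 the unlabelled level is 101 CPM with HISAT-3N and 470 CPM with STAR.

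The plot of these levels by library separates genes that both aligners place alike from the one they do not. A further gene of chromosome 1 called with both, chosen here after its values were seen, has no measured fold. It had 0 reads in the 3 unlabelled libraries and 78 in the 6 labelled ones, of which 90.8% were converted on average over the labelled libraries.

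Genes called higher and genes called lower differed in their share of converted reads. The converted share, the percentage of a gene's labelled exonic reads that were converted, had a median of 16.9% in the 335 higher genes and 43.0% in the 280 lower genes, against 32.2% in all genes. In unlabelled cells the medians were 3.27%, 2.64% and 2.36%. The unconverted reads of the higher genes had a median log2 ratio, labelled over unlabelled, of 0.19. It was above 0 in 281 of the 335, against 1389 of all 11927 genes. The median ratio was −1.29 in the lower genes and −0.54 over all genes. These ratios use part of the reads that chose the genes, and labelled libraries lose converted reads from them, so they are a description only.

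Ordering the 7201 genes with at least 50 exonic reads per library by converted share into 10 equal bins gave a graded change. In the lowest bin, with shares of 3.11% to 14.4%, the median log2 change was 0.14 with HISAT-3N and 0.22 with STAR. In the highest bin, with shares of 54.2% to 97.2%, it was −0.13 and −0.23. The medians fell at each step from the lowest bin to the highest with both aligners. Intronic reads of the same bins showed no such grade with HISAT-3N, with medians between −0.04 and 0.003. Under drop-out handling the exonic HISAT-3N medians of these bins went from 0.13 in the lowest to −0.099 in the highest. They did not fall at each step there. The lowest bin held 127 higher genes and 1 lower gene, and the highest held 4 higher and 77 lower. Over all 7201 genes, 4.36% were higher and 3.62% lower, so the lowest bin (17.6% higher) and the highest bin (10.7% lower) stood well above the background. Ordered instead by the number of T positions per read, the 10 bins had HISAT-3N medians between −0.02 and 0.02. With STAR the medians went from 0.03 in the bin poorest in T to −0.02 in the richest, and with HISAT2 from 0.11 to −0.04.

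The gap between the highest and the lowest bin differed with the aligner. Set against the unlabelled library of the same chemistry, it was −0.30 ± 0.21 (SD, n = 6) with HISAT-3N, −0.47 ± 0.19 (SD, n = 6) with STAR and −0.73 ± 0.16 (SD, n = 6) with HISAT2. Labelled libraries of the same chemistry share its unlabelled library, so the 6 values behind each SD are not independent. In each of the 6 libraries the gap was wider with STAR and with HISAT2 than with HISAT-3N. With HISAT-3N the SLAM pair gave −0.57 and −0.47, the TL pair −0.29 and −0.31, and the TUC pair −0.0007 and −0.15. The first TUC library thus showed almost no gap with HISAT-3N, and −0.23 with STAR. The share and the change were taken from the same labelled libraries, so the 6429 of these genes with enough reads, at least 50 in all, in the labelled drop-out libraries were also ordered by their share there, which the fit did not use. Lowest and highest bins then had median changes of 0.11 and −0.14 with HISAT-3N, and 0.19 and −0.20 with STAR.

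**Figure D3:**
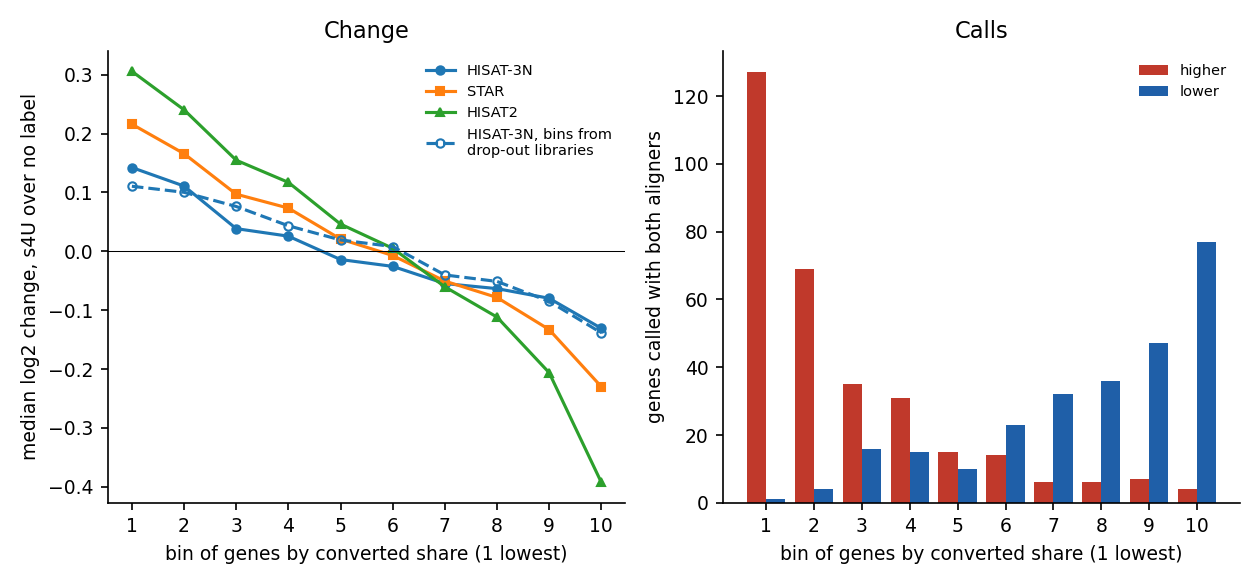
The left panel plots the median log2 change of s4U over no label in 10 bins of 7201 genes ordered by converted share, for 3 aligners, with a dashed line for bins of 6429 genes set by the drop-out libraries. The right panel counts genes called with both aligners in each bin, falling from 127 to 4 for higher genes (red) and going from 1 to 77 for lower genes (blue).

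Named transcripts were found in the authors' deposited table of bakR results, which holds first-order rate constants of RNA decay under improved handling in an unstated time unit. In the authors' deposited table the median constant of 2568 transcripts was 0.101. There, MYC, a growth-promoting transcription factor, had 0.871 to 0.953 over the 3 chemistries in the authors' deposited table, and JUN, a component of the AP-1 factor, had 0.547 to 0.668. EEF1A1, a translation elongation factor, had 0.013 to 0.025 in the authors' deposited table. Of 24 listed long-lived mRNAs, 20 were in the authors' deposited table with a median of 0.0256, and of 36 immediate-early genes, which encode rapidly induced regulators, 4 were there with a median of 0.399. Of 10 names typical of HEK 293 cells, 6 were in the authors' deposited table, and of 14 markers of other cell types, 0. The authors' deposited table uses symbols, so these transcripts could not be matched to the called genes.

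Reads that the authors' table marks as intronic, which in spliced genes come mostly from unspliced RNA, were not used in the exonic fits. The mark is not unspliced RNA alone, since it is also carried by reads of the mitochondrial chromosome, whose genes have no introns. Among the higher genes, 304 were tested on intronic reads with both aligners, and 185 (60.9%) had a positive change with both. Of the 257 lower genes so tested, 182 (70.8%) had a negative change with both. Over all genes tested this way, 47.1% kept the sign of their exonic change. The intronic medians were 0.13 for the higher and −0.22 for the lower genes with HISAT-3N, smaller than the exonic ones. Intronic calls with both aligners and the same sign were made for 13 of the higher and 34 of the lower genes, and opposite calls for 1 and 2. Of those 13, 2 were mitochondrial, and without that chromosome the call was made for 11 of 300 higher genes (3.67%). In the intronic fits, 3.42% of 12566 genes were called with both aligners, 222 higher (1.77%) and 208 lower (1.66%). By itself HISAT-3N called 7.91% of its genes (3.72% higher, 4.19% lower) and STAR 6.2% (3.21% higher, 2.99% lower). A same-direction intronic call was thus more frequent among the lower genes (13.2%) than among the higher ones (4.28%). That difference was not tested.

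The drop-out libraries gave a second set of 9, with their own unlabelled controls, in the same 3 chemistries. There, 231 of the 325 higher genes tested (71.1%) were positive with both aligners, and 145 of the 248 lower genes tested (58.5%) were negative with both. Among genes not called under improved handling, 51.8% of those with a positive and 47.6% of those with a negative change kept their sign. The median change under drop-out handling was 0.16 for the higher genes and −0.14 for the lower ones. Few passed the test there: 2 of the higher and 4 of the lower genes were called with both aligners and the same sign. In the drop-out fits, 17 of 8954 genes (0.19%) were called with both, 0.0893% higher and 0.101% lower. With HISAT-3N 30 genes (0.329%) were called there and with STAR 36 (0.376%). Most called genes thus kept their direction in these other libraries, at a smaller size. They were chosen by their change under improved handling, so a smaller size elsewhere does not by itself mark a difference of handling. Labelled drop-out libraries had 10.4% to 17.4% of exonic gene reads converted, against 24.7% to 33.2% under improved handling. Chromosome 21 and the 2 contigs took 28.1% to 44.9% of their reads, against 6.49% to 15.3%. HISAT-3N tested 9113 genes there, against 12164.

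**Figure D4:**
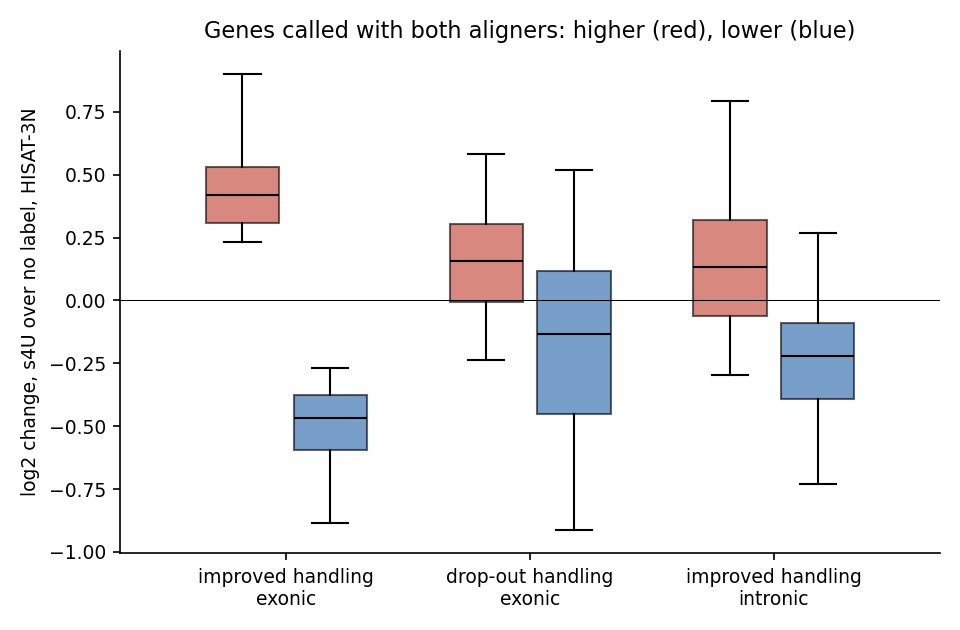
Boxes show the log2 change of s4U over no label with HISAT-3N for genes called higher (red) or lower (blue) with both aligners, in the exonic reads that chose them, in drop-out handling and in intronic reads. Boxes span the quartiles, lines the medians and whiskers the 5th to 95th percentiles, and over the genes HISAT-3N tested the medians are 0.42, 0.16 and 0.13 for higher genes and −0.47, −0.13 and −0.22 for lower genes.

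Whether the response differed between handlings was tested by the product of label and handling over all 18 libraries. This called 3 genes with HISAT-3N (0.0253%), 14 with STAR (0.116%) and the same 3 with both, or 0.0258% of genes, and 1014 and 1087 genes had an unadjusted p under 0.05. ENSG00000117450 was one of the 3. Its change was larger under improved handling by 1.15 ± 0.21 (SE, edgeR adjusted p = 0.025) with HISAT-3N and by 1.08 ± 0.20 (SE, edgeR adjusted p = 0.023) with STAR, since it changed by 0.24 ± 0.12 (SE) under drop-out handling. With each of the 18 libraries left out in turn the difference stayed positive, at 0.86 to 1.35 with HISAT-3N, but its call was lost in 10 of the 18 fits with each aligner (edgeR adjusted p of up to 0.30 with HISAT-3N and 0.28 with STAR). With both aligners it was lost without any unlabelled drop-out library, without the unlabelled TL or SLAM library of improved handling, without the second labelled SLAM, TL or TUC library of improved handling, and without the first labelled TL library of drop-out handling. It was also lost with HISAT-3N without the first labelled SLAM library and with STAR without the first labelled TUC library, both of improved handling. For ENSG00000106948 the drop-out change was −0.06 ± 0.26 (SE), and the difference was called with STAR (adjusted p = 0.044) but not with HISAT-3N (adjusted p = 0.057), and the STAR call was lost in 12 of the 18 fits with a library left out. ENSG00000151065 had a drop-out change of −1.31 ± 0.32 (SE, edgeR adjusted p = 0.096) with HISAT-3N, not called there. ENSG00000248527 was called under drop-out handling with HISAT-3N, at 1.51 ± 0.17 (SE, edgeR adjusted p = 6.3e-05), but stood at −0.19 with STAR (edgeR adjusted p = 0.59), the opposite sign.

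Whether the response differed between chemistries was tested by the product of label and chemistry in the 9 libraries. It called 2 genes with HISAT-3N, 2 with STAR and 0 with both (edgeR, 0.0156% of genes with each aligner), with 698 and 655 genes at an unadjusted p under 0.05 and 0 by DESeq2 with either aligner. ENSG00000117450 had changes of 1.25 in TL, 2.25 in SLAM and 1.03 in TUC, with an adjusted p of 0.12 for the difference by edgeR.

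The mitochondrial chromosome was the one gene family the identifiers' contig could set apart. Its RNA is transcribed from both strands as long precursors that are cut into ribosomal, transfer and messenger RNAs, with the ribosomal RNAs the most abundant. Of its 15 genes tested, 10 were higher with both aligners and 0 lower (66.7%, against 2.81% of all genes), 3 were called by HISAT-3N alone, and 2 by neither. The 10 had log2 changes of 0.23 to 0.48 with HISAT-3N. Calls were more frequent in well-covered genes. Most of the 15 lay in the highest of 10 bins of all genes by mean reads, where 14.2% of genes were higher. Summed over the 15 genes, the unlabelled libraries gave 34750 CPM in TL, 47403 CPM in SLAM and 32276 CPM in TUC. The labelled pairs gave 46725 and 45481 CPM in TL, 51273 and 58866 CPM in SLAM, and 39866 and 42892 CPM in TUC. Each labelled library was above the unlabelled one of its chemistry, but the groups overlapped across chemistries, and no single mitochondrial gene separated all 6 labelled from all 3 unlabelled libraries. The higher sum in SLAM was not a rise of most genes, since 6 of the 15 were positive there. The 2 genes with the lowest converted shares, at 11691 and 2844 CPM without s4U, rose by 0.53 and 0.46 in SLAM.

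By chemistry, all 15 genes were positive in TL and in TUC, with medians of 0.38 and 0.40, whereas 6 were positive in SLAM, where the median was −0.02. The product of label and chemistry was called for 0 of the 15 with HISAT-3N (edgeR adjusted p of 0.114 to 0.997) and for 1 with STAR (edgeR adjusted p = 0.0016). The 2 genes with the lowest converted shares, 5.68% and 8.83%, rose by 0.48 and 0.48 and were among the 6 positive in every chemistry. The others had shares of 20.7% to 65.2%, and some of them rose about as much, such as the gene with 20.7%, by 0.48, and one with 53.7%, by 0.46. In the drop-out libraries 0 of the 15 were positive, the median was −0.12, and none was called. The product of label and handling was called for 0 of the 15 with either aligner. The count of 10 fell to 4 with DESeq2's scaling and test, to 5 without the unlabelled TL library, to 3 without the unlabelled TUC library, to 6 without the second labelled SLAM library, and to 0 without the chemistry term or in the fit of all 18 libraries. In the authors' deposited table the rate constant of MT-RNR2, the large mitochondrial ribosomal RNA, was 0.0147 to 0.0231 and that of MT-ND1, a subunit of respiratory complex I, 0.404 to 0.523.

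**Figure D5:**
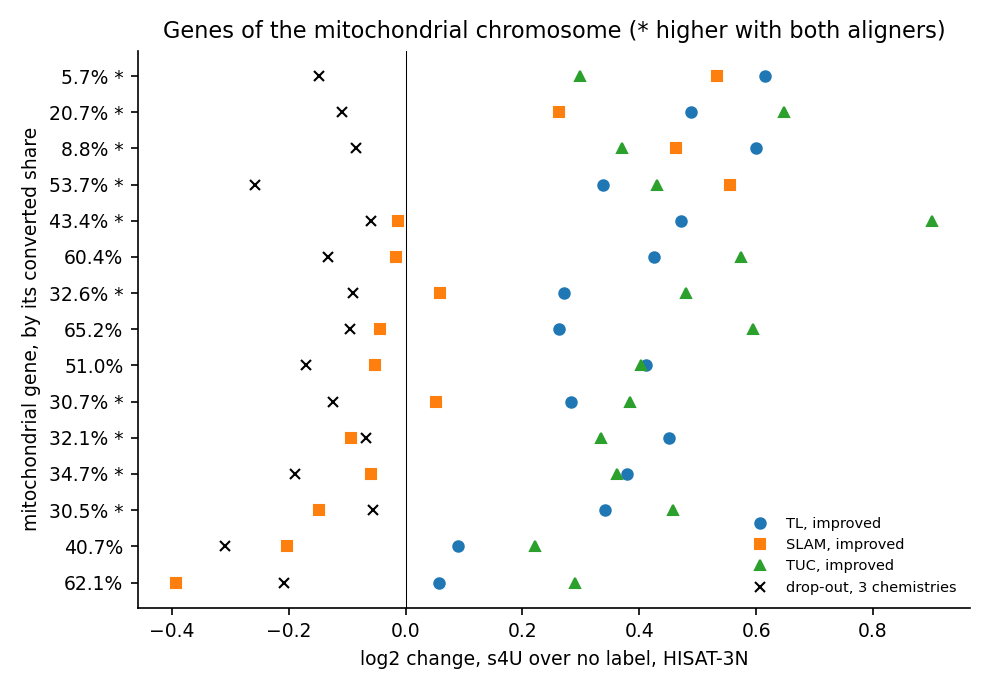
Each row is a gene of the mitochondrial chromosome, marked by its converted share, with the log2 change of s4U over no label in TL, SLAM and TUC under improved handling and over the 3 chemistries under drop-out handling (crosses). TL and TUC points all lie above 0, SLAM points lie on both sides, and all crosses lie below 0.

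Other chromosomes differed less from the background. Chromosome X had 27 higher genes of 440 (6.14%) and chromosome 6 had 30 lower genes of 632 (4.75%). Chromosome 16 had 4 higher of 522 (0.766%) and chromosome 19 had 6 lower of 747 (0.803%). These shares are a description, since they were picked from 24 chromosomes after their values were seen.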

How the data were processed

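The authors deposited read counts for each library, aligner, settings code, contig and gene, split by intronic flag, mismatch number (T-to-C) and T positions. Per the submitters' processing notes, cutadapt, HISAT2, STAR, HISAT, Picard, HTSeq and DESeq2 were used with GRCh38. Versions, settings codes and the treatment of reads fitting several genes are not given in the sources used here. The other deposited values of the count table are whole numbers. The authors also deposited degradation rate constants, treated as a score because no time unit is stated per the labels. The kit keeps strand, per the labels' protocols.

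Exonic counts (settings D) were summed per gene. Reads naming no gene, 17.5% to 25.7% of an improved-handling library with HISAT-3N, entered no test. Genes were filtered with filterByExpr, scaled by TMM and fitted with edgeR 4.0.16 (DESeq2 1.42.0 as an alternative) on chemistry and label. The standard error of a log2 change was taken as its size divided by the square root of F. CPM are of TMM-scaled exonic gene reads. Ratios by chemistry or library add a prior of 0.5 count. Adjusted p-values are Benjamini-Hochberg over all genes tested, and the threshold was 0.05. Both alignments hold the same reads and are not independent. The fits were also run on simulated counts, but no outcome is given here and no result rests on it. Counts of the labelled pairs differed beyond sampling (chi-square 2.09 to 2.26 times its degrees of freedom), so no pair was one library deposited again. This ratio covers counting error only and cannot tell separate cultures from repeat preparations of one RNA.

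The members, lists and tests were chosen with earlier results of these data known. Genes named were to be the 15 highest and 15 lowest changes among those called with both aligners and averaging at least 50 reads. Only 2 in each direction are named, because no table paired the identifiers with symbols. For the same reason the planned gene lists, cell line markers and promoter motifs were not applied to the counts. Alternatives are given in the closing section.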

Additional observations from a re-analysis of the deposited data

Results flagged for a closer look

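In 3 genes the change with s4U differed between improved and drop-out handling with both aligners. ENSG00000117450 differed by 1.15 on the log2 scale with HISAT-3N (edgeR adjusted p = 0.025), with 1.41 under improved and 0.24 under drop-out handling. The other 2, both among the genes called lower under improved handling, differed by −0.98 and −1.04 (edgeR adjusted p = 0.012 for each). The first went from −0.40 under improved to 0.52 under drop-out handling, and the second from −0.44 to 0.55. These calls depended on single libraries, although the differences kept their sign. Of the 18 fits with a library left out, the call of ENSG00000117450 was lost in 10 with each aligner. That of the first of the other 2 was lost in 6 with HISAT-3N and 10 with STAR, and that of the second in 5 and 7. All 3 were lost with both aligners without the unlabelled TL library of improved handling, and without any of the 3 unlabelled drop-out libraries.

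In 18 measures looked at over the 6 labelled libraries, 1 had a library standing apart. The STAR level of ENSG00000151065 was 22.2 CPM in the second labelled TL library, the highest of a range from 14.4 to 22.2 CPM. Chance flags about 1 in 20 such groups.

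Reads that name no gene entered no comparison. In the labelled improved-handling libraries 31.6% to 51.1% of them carried a T-to-C mismatch with HISAT-3N, against 2.96% to 4.26% in the unlabelled ones.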

How the results depend on the processing

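With HISAT-3N, 770 genes (6.33%) were called and with STAR 1281 (10.5%), and 615 with both. DESeq2 called 461, 823 and 389 in that order, a fit with no chemistry term 266, 473 and 193, and a fit of all 18 libraries in 12 groups, which changes both the libraries and the model, 28, 8 and 8. Exonic and intronic reads together gave 1439, 1791 and 890, with 366 of the 615 genes still called. HISAT2 in place of HISAT-3N gave 2315, 1615 and 1319 with settings D, ML and VL. Omitting the filter, requiring a mean of 50 reads or dropping genes of the mitochondrial chromosome, chromosome 21 and unplaced contigs kept the 3 counts within 1.5 times. Leaving out 1 library at a time gave 308 to 770 with HISAT-3N, 556 to 1279 with STAR and 242 to 608 with both. The lowest counts all came without the unlabelled TL library. The fit of all 18 libraries moved the share of higher genes among the HISAT-3N calls from 55.3% to 78.6% and among those with both from 54.5% to 6 of 8, and omitting the filter moved the latter to 208 of 484. Lower genes also outnumbered higher ones with both aligners when exonic and intronic reads were summed (412 higher, 478 lower) and with no chemistry term (94 higher, 99 lower). In every alternative except exonic and intronic reads together (610 of 615), all of the 615 genes that were tested kept their sign with HISAT-3N. Each alternative took its change from the improved-handling libraries that chose the genes, so the kept signs do not test them.

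Among the alternatives for the log2 changes of the 4 named genes, 150 kept direction and call and 4, given with those genes, kept direction and lost the call. DESeq2 gave ENSG00000151065 no adjusted p with either aligner, so it is not among them. Some that kept the call moved in size by over 1.5 times, namely ENSG00000248527 with HISAT2 (0.40, 0.35 and 0.37 against 2.04) and ENSG00000151065 with exonic and intronic reads together (−0.46 against −1.04 with HISAT-3N, −0.37 against −0.99 with STAR).

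Deviations of same-numbered labelled libraries correlated at 0.03 to 0.06 between chemistries. Counting error lowers such correlations, so they cannot tell whether libraries were paired by replicate number. With the number as a replicate block, 793, 1298 and 631 genes were called.

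The count of 10 mitochondrial genes became 4 with DESeq2, 0 with no chemistry term and 0 with all 18 libraries, and ranged from 3 to 13 with a library left out. The difference between the highest and lowest of 10 bins by converted share, in the fitted changes, was −0.27 with HISAT-3N and −0.45 with STAR. It ranged from −0.39 to −0.18 and from −0.52 to −0.36 with a library left out. With HISAT2 it was −0.70, −0.53 and −0.45 with settings D, ML and VL. Bins set by the drop-out libraries were added after seeing the data.

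Intronic calls numbered 1019 with HISAT-3N and 802 with STAR. They were 467 by DESeq2 with STAR, and 336 to 1106 and 234 to 842 with a library left out. The 2 calls of a difference between chemistries with each aligner became 0 by DESeq2, 6 without the filter with HISAT-3N, and 1 to 22 (HISAT-3N) and 0 to 22 (STAR) with a library left out. The 3 and 14 calls of a difference between handlings became 39 and 41 by DESeq2, 28 and 48 without the filter, and 0 to 26 and 0 to 34 with a library left out. The cause of these changes was not tested. The shallowest library held 867400 exonic reads. Of 10 bins by mean reads, the lowest had 0.493% of its genes called higher with both aligners and 0 called lower, and the highest 14.2% higher and 6.82% lower.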
